A study of Mus musculus with 3 samples.

Results

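Reads of 3 chromatin immunoprecipitation libraries were described at 7 mouse genes of growth and cell-cycle control, which are Myc, Pim1, Ccnd2, Ccnd3, Cdkn1b, Cdkn2a and Trp53. The genes were chosen by name, and each was given a window of mm9 coordinates. The windows hold 275 of the 2285014 bins of 1 kb that had a read in any library.

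The study mapped marks on histone H3 in mouse pro-B cells, which are early B-lineage cells. The 3 groups share 1 cell source, which the labels give as RAG2-/- and Abelson-transformed, of strain C57BL/7 as the label spells it, and all were grown in RPMI1640 with 10% FBS. RAG2 is needed to rearrange antigen receptor genes, and Abelson virus keeps such cells dividing in culture. The groups differ in the antibody, which was against H3R2me2s (symmetric dimethylation of arginine 2), against H3R2me2sK4me3 (that mark together with trimethylation of lysine 4, called the joint mark) or against H3K4me3. The first 2 antibodies were custom reagents of the submitting laboratory and the third came from Abcam. Each antibody had 1 library, so no difference given here has a replicate check and no p-value was computed. No input or IgG library was used here, and antibody signals were not calibrated against each other, and a ratio of antibodies therefore gives no share of tails that carry a mark. Whether the line is 1 clone was not given in the sources used here. Lineage markers and the RAG2 deletion were not located for want of an mm9 annotation, so cell type and genotype were not checked.

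The libraries held 6923765 reads of H3R2me2s, 7128852 of the joint mark and 13898471 of H3K4me3. Repeats of a read's position and strand were 5.22%, 2.64% and 6.20% of these. Levels are given as multiples of background, which is the mean of the bins lying over 5 kb away from enriched ones. Background held 2.35 H3R2me2s, 1.86 joint-mark and 2.98 H3K4me3 reads in a bin. A bin was called enriched from 15, 16 and 25 reads upwards in the same order. CPM is reads scaled to the mapped reads of the library (counts per 1000000). Intervals are exact 95% intervals, Poisson for levels and binomial (Clopper-Pearson) for ratios, and describe counting error alone, because reads amplified by PCR with no molecular identifiers cannot be taken as independent molecules.

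H3K4me3 is known as a mark of active or poised promoters, and H3R2me2s is placed by arginine methyltransferases on the same histone tail. Myc is a transcription factor that drives cell growth, and Pim1 is a kinase that cooperates with it in mouse lymphoma. D-type cyclins activate the kinases Cdk4 and Cdk6 at entry into the cell cycle. Cdkn1b (p27Kip1) and the Ink4a product of Cdkn2a inhibit cyclin-dependent kinases, while the Arf product of Cdkn2a protects the tumour suppressor p53 from degradation. Loss of Arf or p53 function is a known step of Abelson transformation in culture.

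All 7 windows held bins called for every antibody, and the highest bin of Cdkn2a was the weakest of the 7 in each library. Of the 275 bins, 57 (20.7%) were called for H3R2me2s, 66 (24.0%) for the joint mark and 98 (35.6%) for H3K4me3. Over all bins of the genome the shares were 1.23%, 1.45% and 2.45%. The windows were drawn around genes, so their higher shares are a description and not a result about these genes. Of the 99 bins called in any library, 54 were called in all 3, 30 for H3K4me3 alone, 12 for the joint mark with H3K4me3 and 2 for H3R2me2s with H3K4me3. The remaining bin was called for H3R2me2s alone. Every bin called for the joint mark was thus also called for H3K4me3 in these windows.

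**Figure D1:**
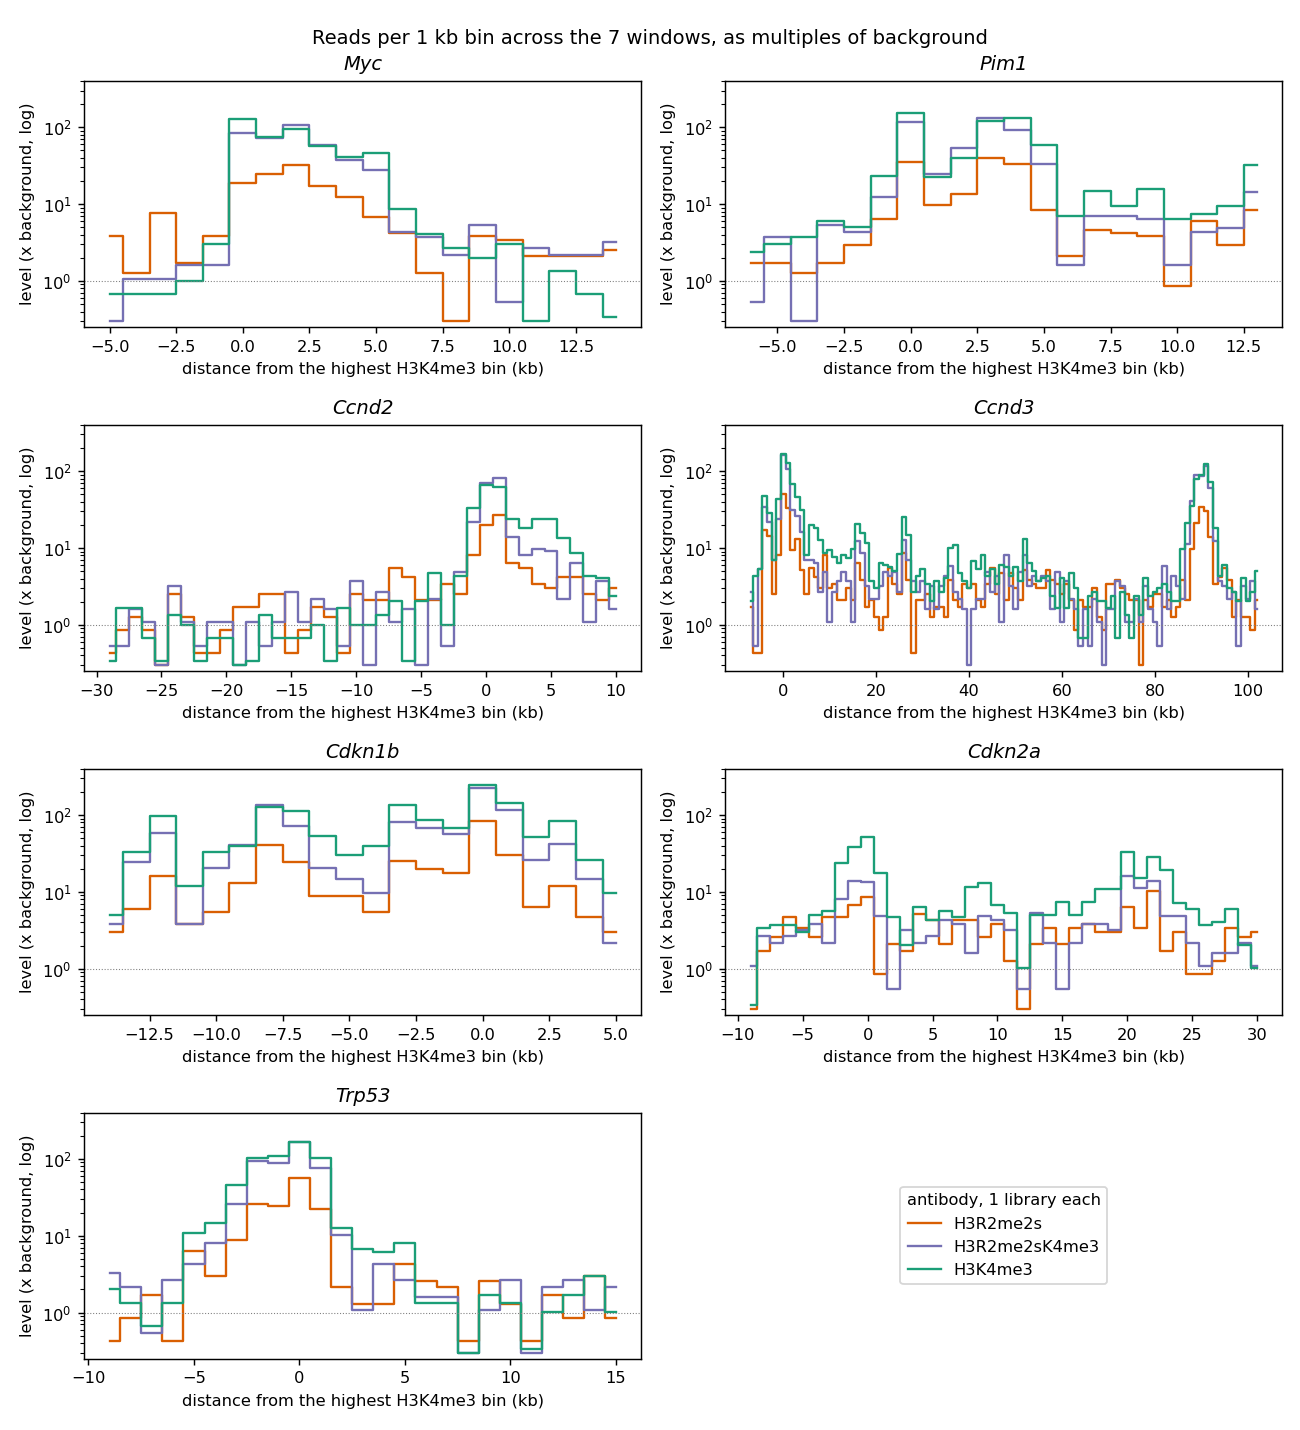
Level of each antibody per 1 kb bin (multiples of background, log axis, levels under 0.3 drawn at 0.3) against distance from the highest H3K4me3 bin of the window in kb, with 1 line per library. The 3 lines rise over largely the same stretches, with their highest bins apart from that of H3K4me3 at Myc, Pim1, Ccnd2 and Cdkn2a. At Cdkn2a the H3K4me3 line reaches 52.4 and the highest points of the H3R2me2s and joint-mark lines are 10.2 and 16.1.

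The growth drivers Myc and Pim1 carried strong, compact stretches of all 3 marks. The Myc window, chr15:61810001-61830000, held 359 reads of H3R2me2s, 780 of the joint mark and 1403 of H3K4me3. That came to 51.9, 109 and 101 CPM. Nearly all enriched bins formed 1 stretch of 7 kb, chr15:61815001-61822000, in which levels averaged 16.7, 55.95 and 64.4 times background. The highest bins did not coincide. H3R2me2s reached 32.3 times background (25.4 to 40.4) and the joint mark 106 (91.6 to 122) at the bin starting at 61817001, while H3K4me3 reached 129 (116 to 142) at the bin starting at 61815001. At that H3K4me3 maximum the other marks stood at 19.1 and 84.9, and the same 2 kb separation was found with reads not moved, moved 150 bp, counted once per position or thinned to equal depth. Among the 6 bins of the window with at least 50 reads in both libraries together, the ratio of the joint mark to H3K4me3 in CPM varied between 0.729 (0.520 to 1.01) in the bin starting at 61820001 and 1.37 (1.13 to 1.65) in that starting at 61817001.

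Pim1, in the window chr17:29620001-29640000, had 443 reads of H3R2me2s, 976 of the joint mark and 1996 of H3K4me3, or 64.0, 137 and 144 CPM. Its stretch, chr17:29625001-29636000, had 2 crests in every library. At the bin starting at 29626001 the levels were 34.8, 116 and 152 times background for H3R2me2s, the joint mark and H3K4me3. At the bin starting at 29629001 they were 39.5, 131 and 122, and H3K4me3 had its own later crest in the next bin, at 131. The later crest was the higher one for H3R2me2s, with 93 against 82 reads, and for the joint mark, with 243 against 215. Both differences were within counting error, since the later crest's intervals, 31.9 to 48.4 and 114.7 to 148, held the earlier crest's levels. For H3K4me3 it was the lower one, with 389 against 453. A second stretch, chr17:29638001-29641000, runs past the end of the window and was weaker, at 6.09, 11.6 and 26.4 times background. There the joint mark over H3K4me3 was 0.537 (0.402 to 0.709), against 0.994 (0.916 to 1.08) in the first stretch. In the RefSeq gene order Pim1 lies between Fgd2 and Tmem217, and the gene to which this second stretch belongs was not placed.

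The D-type cyclin genes differed in extent. Ccnd2, in the window chr6:127070001-127110000, had 326 reads of H3R2me2s, 496 of the joint mark and 942 of H3K4me3, or 47.1, 69.6 and 67.8 CPM. Its only stretch, chr6:127098001-127107000, lay near the end of the window. A core of 2 bins from 127099001 held 47 and 64 reads of H3R2me2s, 129 and 152 of the joint mark and 194 and 186 of H3K4me3. Behind it a shoulder of 4 bins from 127101001 kept 70, 55, 72 and 70 H3K4me3 reads, while H3R2me2s had 15, 13, 8 and 7 and the joint mark 26, 15, 18 and 17. The joint mark over H3K4me3 was 1.59 (1.28 to 1.98) in the highest joint-mark bin of the core and 0.473 (0.261 to 0.813) in the last bin of that shoulder. These were the highest and lowest of the 7 bins with at least 50 reads in both libraries together. The mean read position of the joint mark relative to that of H3K4me3 was -660 bp in coordinate order (standard error 118, from read positions alone). H3R2me2s was 4 bins wide by calls, the joint mark 6 and H3K4me3 9.

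Ccnd3, the largest window with chr17:47635001-47745000, had 1235 reads of H3R2me2s, 2142 of the joint mark and 4527 of H3K4me3, or 178, 300.5 and 326 CPM. It held 2 strong stretches near the ends of the window. The first, chr17:47638001-47653000, held the highest bin of each library, which started at 47642001 in all 3 and reached 49.7 times background (41.1 to 59.6) for H3R2me2s, 162 (144 to 181) for the joint mark and 167 (152 to 182) for H3K4me3. The second, chr17:47728001-47736000, averaged 14.8, 52.2 and 56.2 times background. There H3R2me2s was highest in the bin starting at 47732001, with 80 reads, and the joint mark and H3K4me3 in the next bin, with 215 and 369 reads. The joint mark over H3K4me3 was 0.871 (0.802 to 0.944) in the first and 1.13 (1.03 to 1.24) in the second. H3R2me2s over H3K4me3 was nearly the same in both, at 0.441 (0.396 to 0.490) and 0.418 (0.366 to 0.476). Between them lay 4 weak H3K4me3 stretches of 1 to 4 kb, at 10.6 to 16.2 times background. The 79 bins called in no library stood at 2.44 times background (2.22 to 2.68) for H3R2me2s, 2.84 (2.57 to 3.12) for the joint mark and 3.84 (3.59 to 4.10) for H3K4me3. At Ccnd2 the 31 such bins stood at 1.82, 1.44 and 1.42. For H3K4me3 such bins stood higher than at Ccnd3 at Pim1 (5.12, 8 bins), Cdkn1b (5.04, 1 bin) and Cdkn2a (4.48, 28 bins). They stood lower at Myc (1.62) and Trp53 (2.29). RefSeq gives Ccnd3 more than 1 start, an overlapping gene, Bysl, and the near neighbours Taf8 and Med20, and the stretches were not assigned among them.

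The window of the inhibitor Cdkn1b held a broad domain that ranked among the regions with most reads in the genome, while the highest bin of Cdkn2a was the weakest of the 7. At Cdkn1b, chr6:134865001-134885000, there were 792 reads of H3R2me2s, 1922 of the joint mark and 4247 of H3K4me3, or 114, 269.6 and 306 CPM. Of its 20 bins 13 were called for H3R2me2s, 17 for the joint mark and 19 for H3K4me3. Ranked by reads, its H3R2me2s region of 13 kb was number 7 of 13846, its joint-mark region of 18 kb number 6 of 13180 and its H3K4me3 region of 19 kb number 4 of 18461. Of the H3K4me3 regions of the genome 0.0867% were as wide. The domain had 5 crests, which fell in the same bins in all 3 libraries, starting at 134867001, 134871001, 134876001, 134879001 and 134882001. The fourth was the highest in all libraries, at 82.4 times background (71.2 to 94.8) for H3R2me2s, 221 (200 to 244) for the joint mark and 244 (227 to 262) for H3K4me3. Between crests, at the bin starting at 134875001, H3K4me3 kept 39.6 times background with 118 reads, while H3R2me2s had 5.52 with 13 reads and the joint mark 9.67 with 18 reads. Among the 17 bins with at least 50 reads in both libraries together, the ratio of the joint mark to H3K4me3 was lowest in that bin, at 0.297 (0.170 to 0.491). It was highest in the bin starting at 134871001, at 1.28 (1.09 to 1.51). At the remaining crests, in coordinate order, it was 0.733, 0.745, 1.10 and 0.613. Gpr19 and Apold1 are the neighbours of Cdkn1b in the RefSeq gene order, and the crests were not assigned among these genes.

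At Cdkn2a, chr4:88910001-88950000, there were 304 reads of H3R2me2s, 318 of the joint mark and 1190 of H3K4me3, or 43.9, 44.6 and 85.6 CPM. H3K4me3 formed 3 stretches. In chr4:88917001-88921000 there were 49 reads of H3R2me2s, 75 of the joint mark and 394 of H3K4me3, and in chr4:88937001-88943000 there were 65, 99 and 349. The middle stretch, chr4:88927001-88929000, had 16, 12 and 73 reads and was called for H3K4me3 alone. H3R2me2s was highest in the bin starting at 88941001, at 10.2 times background (6.53 to 15.2). The joint mark was highest in the bin starting at 88939001, at 16.1 (10.9 to 23.0), and H3K4me3 in that starting at 88919001, at 52.4 (44.5 to 61.3). The highest bins of the last and the first stretch held 24 and 20 reads of H3R2me2s and 30 and 26 of the joint mark, so the place of the maximum is within counting error for both. Averaged over their widths, the last stretch stood at 4.60, 8.86 and 19.5 times background and the first at 5.20, 10.1 and 33.1. Of the 12 bins called for H3K4me3, 4 were called for H3R2me2s and 5 for the joint mark. Only 24.7% of the window's H3R2me2s reads, 40.3% of joint-mark reads and 68.6% of H3K4me3 reads lay in bins called in their own library. The medians over the 7 genes were 78.8%, 91.1% and 93.6%, but such a share depends on window width. At Ccnd2, with a window of the same 40 kb, the shares were 44.5%, 77.0% and 86.1%. At Ccnd3, with 110 kb, they were 52.7%, 75.8% and 80.1%. Mtap and Cdkn2b are the neighbours of Cdkn2a in the RefSeq gene order, and the stretches were not assigned among these genes.

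Trp53, which encodes p53, had a single compact stretch. Its window, chr11:69385001-69410000, held 412 reads of H3R2me2s, 935 of the joint mark and 1799 of H3K4me3, or 59.5, 131 and 129 CPM. The stretch chr11:69389001-69397000 averaged 18.6, 58.8 and 70.6 times background. All 3 libraries were highest in the bin starting at 69394001, with 56.5 (47.3 to 66.9) for H3R2me2s, 165 (147 to 184) for the joint mark and 168 (153 to 183) for H3K4me3. In RefSeq Trp53 has Wrap53 as its neighbour on one side and Atp1b2 on the other. Over the 7 genes, the highest bin fell in the same place as that of H3K4me3 at Ccnd3, Cdkn1b and Trp53, both for H3R2me2s and for the joint mark, and elsewhere at the other 4. At Ccnd2 the neighbouring bins with most H3K4me3 reads held 194 and 186, which differ by less than counting error, and the 500 bp with most reads were the same for the joint mark and H3K4me3. At Pim1 and Cdkn2a the places of the H3R2me2s and joint-mark maxima were also within counting error, as given above.

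Promoter sequences were read from the RefSeq table of build GRCm38.p6, which had 8 promoters for 5 of the 7 genes. Each covers 250 bases before to 50 bases after an annotated start. Those of the inhibitors are printed 5′ to 3′ on the gene's strand, since these genes have the weakest and the strongest highest bins of the 7. Capitals mark CACGTG, the E-box bound by Myc, and CCAAT with its reverse complement ATTGG, searched on both strands. The starts were not placed in mm9, so no stretch above is tied to a sequence.
Cdkn2a start 1, chr4:89294570-89294869, minus strand: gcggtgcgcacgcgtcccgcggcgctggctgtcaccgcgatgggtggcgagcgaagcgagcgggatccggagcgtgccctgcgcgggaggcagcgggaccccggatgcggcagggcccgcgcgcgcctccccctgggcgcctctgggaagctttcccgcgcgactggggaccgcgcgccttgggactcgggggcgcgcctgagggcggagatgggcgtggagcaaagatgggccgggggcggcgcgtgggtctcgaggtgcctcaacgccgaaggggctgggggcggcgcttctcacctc
Cdkn2a start 2, chr4:89282143-89282442, minus strand: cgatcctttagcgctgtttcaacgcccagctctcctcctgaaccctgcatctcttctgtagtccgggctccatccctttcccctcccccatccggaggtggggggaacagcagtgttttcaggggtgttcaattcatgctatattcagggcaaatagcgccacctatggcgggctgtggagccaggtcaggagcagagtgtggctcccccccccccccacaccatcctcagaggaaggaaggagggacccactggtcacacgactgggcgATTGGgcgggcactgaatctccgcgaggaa
Cdkn1b, chr6:134920151-134920450, plus strand: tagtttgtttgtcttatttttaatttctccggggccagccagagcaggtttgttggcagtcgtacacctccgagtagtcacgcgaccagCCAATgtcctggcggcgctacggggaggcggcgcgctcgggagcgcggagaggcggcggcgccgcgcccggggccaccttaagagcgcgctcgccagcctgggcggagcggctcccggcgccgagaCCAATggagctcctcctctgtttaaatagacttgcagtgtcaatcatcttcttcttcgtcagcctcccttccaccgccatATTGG
Trp53, chr11:69580109-69580408, plus strand: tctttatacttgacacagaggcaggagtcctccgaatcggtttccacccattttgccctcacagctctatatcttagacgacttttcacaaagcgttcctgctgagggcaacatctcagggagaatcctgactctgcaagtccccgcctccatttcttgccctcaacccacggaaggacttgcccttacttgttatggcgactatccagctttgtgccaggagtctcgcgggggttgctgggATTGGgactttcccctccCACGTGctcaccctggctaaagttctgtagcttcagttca
The 2 starts of Cdkn2a, from which the Arf and Ink4a products are made, differed in composition. The first held 45 CG dinucleotides, was 77.0% G or C and had no marked motif. The second held 12 CG dinucleotides and 1 ATTGG. Cdkn1b had 30 CG dinucleotides and 3 marked CCAAT or ATTGG motifs, and Trp53 had 10 CG dinucleotides, 1 ATTGG and 1 CACGTG. The median over all 32851 promoters of the table was 7 CG dinucleotides, and 7.15% of them held CACGTG and 37.4% CCAAT. Of the promoters not printed, that of the second Pim1 start held 1 CACGTG. A match is a description and not a binding site.

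Pooled over the enriched bins of a window, the joint mark relative to H3K4me3 was lower at Cdkn2a than at the other 6 genes. Over the bins enriched in any library, the joint mark over H3K4me3 in CPM was 1.06 at Myc (0.967 to 1.16), 0.974 at Pim1 (0.899 to 1.05) and 0.993 at Ccnd2 (0.880 to 1.12). It was 0.928 at Ccnd3 (0.876 to 0.983), 0.882 at Cdkn1b (0.835 to 0.931) and 1.01 at Trp53 (0.934 to 1.10). At Cdkn2a it was 0.444 (0.377 to 0.522), from 186 reads of the joint mark and 816 of H3K4me3. The interval of Cdkn2a overlapped none of the other 6. Of the 99 pooled bins 98 were called for H3K4me3, the denominator, and bins called for it alone lower the ratio. Those were 7 of 12 at Cdkn2a, 12 of 31 at Ccnd3, 4 of 12 at Pim1 and 3 of 9 at Ccnd2. At Cdkn1b they were 2 of 19, and at Myc and Trp53 1 of 8 each. Over whole windows, where no bins are chosen, Cdkn2a had 0.521 (0.459 to 0.590) and the lowest of the other 6 had 0.882. Single stretches of Cdkn2a had 0.371 (0.286 to 0.476), 0.320 (0.158 to 0.594) and 0.553 (0.438 to 0.693). Weak stretches of other genes were also low, at 0.495 to 0.750 between the strong ones of Ccnd3 and 0.537 in the second of Pim1. The median of the 7 was 0.974, beside 0.713 over 18349 regions of the genome with at least 30 reads in both libraries together. A gene value pools the called bins of all stretches in its window. A genome region is a single merged stretch called in either library, gap bins included, so the units are not fully alike. The values of Myc, Trp53, Ccnd2, Pim1, Ccnd3 and Cdkn1b were above 97.6%, 95.7%, 94.2%, 92.4%, 86.9% and 79.4% of those regions, and that of Cdkn2a was above 14.7%. Among the 9242 regions with at least 200 H3K4me3 reads, where the median was 0.828, Cdkn2a was above 1.85% of them. In that class Myc, Trp53, Ccnd2, Pim1, Ccnd3 and Cdkn1b were above 97.6%, 94.5%, 92.04%, 89.2%, 79.5% and 66.1%.

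H3R2me2s over H3K4me3 was 0.437 at Myc (0.384 to 0.497), 0.428 at Pim1 (0.384 to 0.478), 0.478 at Ccnd2 (0.406 to 0.560) and 0.433 at Ccnd3 (0.400 to 0.468). It was 0.372 at Cdkn1b (0.345 to 0.402), 0.320 at Cdkn2a (0.264 to 0.385) and 0.419 at Trp53 (0.372 to 0.470). The median of the 7 was 0.428, close to 0.412 over the regions of the genome, and the interval of Cdkn2a overlapped those of Cdkn1b, Trp53, Pim1 and Myc. H3R2me2s over the joint mark was 0.720 at Cdkn2a (0.571 to 0.905), and lay between 0.413 at Trp53 and 0.481 at Ccnd2 in the other genes. Its interval at Ccnd2, 0.403 to 0.572, touched that of Cdkn2a.

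**Figure D2:**
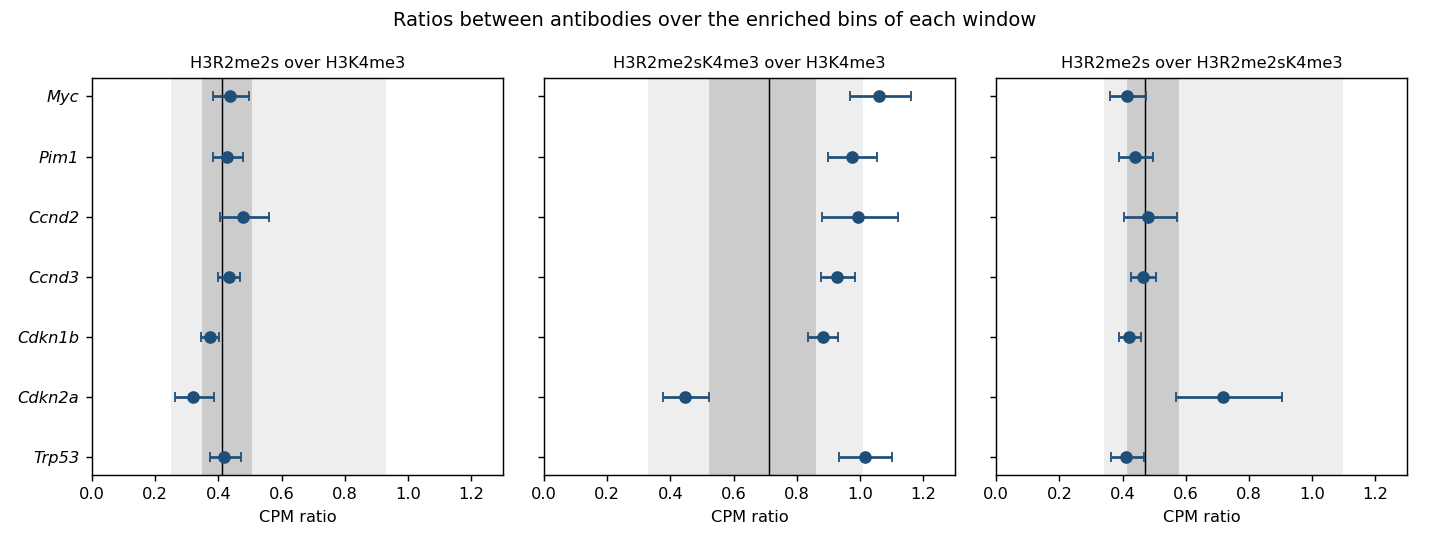
CPM ratio of each pair of antibodies over the enriched bins of each window, 1 point per gene with its exact 95% interval of counting error. The vertical line is the median over single merged regions of the genome, and dark and light bands hold their middle 50% and 90%. Cdkn2a stands at 0.444 for the joint mark over H3K4me3, and the other 6 genes lie between 0.882 and 1.06.

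Across the genome the joint mark gained on H3K4me3 with rising H3K4me3 level, so Cdkn2a was also compared in bins of like H3K4me3 level. These bins too were chosen by their H3K4me3 reads, at Cdkn2a, at the other genes and over the genome alike. In bins with H3K4me3 at 10 to 30 times background, the joint mark over H3K4me3 was 0.458 at Cdkn2a (0.367 to 0.568, 9 bins), 0.628 at the other 6 genes (0.567 to 0.695, 29 bins) and 0.602 over 26335 bins of the genome. In bins at 30 to 60 times background it was 0.428 at Cdkn2a (0.332 to 0.546, 3 bins), 0.839 at the other 6 genes (0.779 to 0.903, 19 bins) and 0.749 over 11046 bins of the genome. The intervals of Cdkn2a and the other genes did not overlap in the upper class and just touched in the lower. For H3R2me2s over H3K4me3, the values at Cdkn2a, the other genes and the genome were 0.355, 0.434 and 0.431 in the lower class, and 0.277, 0.359 and 0.363 in the upper. The intervals of Cdkn2a and the other genes overlapped in both. In the lower class, H3R2me2s over the joint mark was 0.775 at Cdkn2a (0.571 to 1.05) and 0.691 at the other genes (0.601 to 0.795). In the upper class it was 0.648 (0.447 to 0.932) and 0.428 (0.382 to 0.480). Over bins of the genome it was 0.717 in the lower class and 0.484 in the upper. For this ratio too, the intervals of Cdkn2a and the other genes overlapped in both classes. All these ratios keep background reads, which weigh most in weak bins. With background taken off, H3R2me2s over H3K4me3 in levels was 0.219 in the lower class and 0.201 in the upper, over the bins of all 7 windows. For the joint mark over H3K4me3 it was 0.454 and 0.635. No such value was made for Cdkn2a alone.

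**Figure D3:**
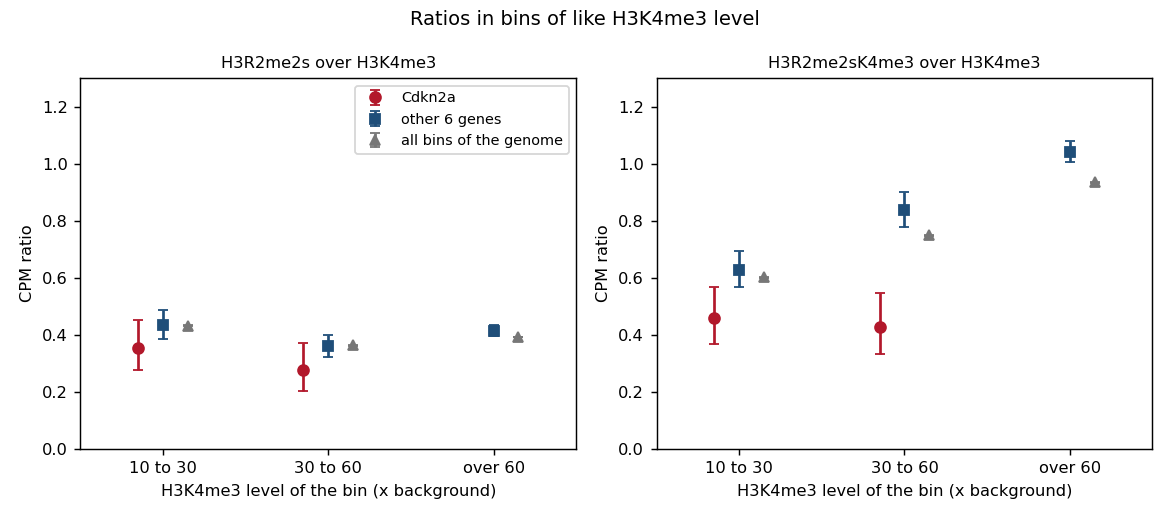
CPM ratios to H3K4me3 in 1 kb bins grouped by their H3K4me3 level (multiples of background), for Cdkn2a, the other 6 genes and all bins of the genome, with exact 95% intervals of counting error. No Cdkn2a bin exceeds 60 times background. In the class of 30 to 60, the joint mark over H3K4me3 is 0.428 at Cdkn2a and 0.839 at the other 6 genes.

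Averaged over about 1 Mb, background was above the genome-wide level around all 7 genes. It was measured in the window with 500 kb on either side, over bins over 5 kb away from enriched ones. The windows themselves held few such bins, with 0 at Pim1 and Cdkn1b, 3 at Myc, 4 at Cdkn2a and 8 at Trp53. Ccnd2 had 23 and Ccnd3 27. The values therefore describe mostly the flanks and not the genes. Relative to the genome-wide level of the same library, it was 1.23, 1.28 and 1.10 around Myc for H3R2me2s, the joint mark and H3K4me3, and 1.48, 1.41 and 1.52 around Pim1. It was 1.33, 1.25 and 1.23 around Ccnd2, 1.37, 1.16 and 1.31 around Ccnd3, and 1.63, 1.52 and 1.49 around Cdkn1b. Around Cdkn2a it was 1.33 (1.28 to 1.39), 1.32 (1.26 to 1.38) and 1.43 (1.38 to 1.48), and around Trp53 it was 1.37 (1.31 to 1.43), 1.36 (1.29 to 1.43) and 1.46 (1.40 to 1.52). All 21 values were above 1, and the lowest interval bound, at Myc for H3K4me3, was 1.06. Of 2364 autosomal windows of 1 Mb, 3.98% had an H3R2me2s background under 0.6 of the genome-wide level, 2.2% a joint-mark background and 1.14% an H3K4me3 background. None of the 7 stretches of about 1 Mb came near that limit. The lowest autosomal ratio of H3R2me2s to H3K4me3 background, 0.525, was on the Cdkn2a chromosome but far from the gene, at chr4:152000001-153000000. Around Cdkn2a the ratio was 0.932. In steps of 100 kb within 500 kb of the window, the lowest values were 0.828, 0.771 and 0.826 around Cdkn2a for H3R2me2s, the joint mark and H3K4me3. They were 0.822, 0.880 and 0.756 around Myc and 0.998, 0.787 and 0.671 around Ccnd3. Around Cdkn1b no such step was under 1.15. Steps out to 3000 kb from the centre of the window reached lower values. The lowest of all 7 genes was near Cdkn1b, at 0.240, 0.179 and 0.207 in the step that starts 2700 kb before the centre. Near Myc the step that starts 1800 kb after the centre stood at 0.414, 0.523 and 0.424. The lowest near Cdkn2a were 0.538, 0.566 and 0.648. What lies behind these lows was not tested.

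**Figure D4:**
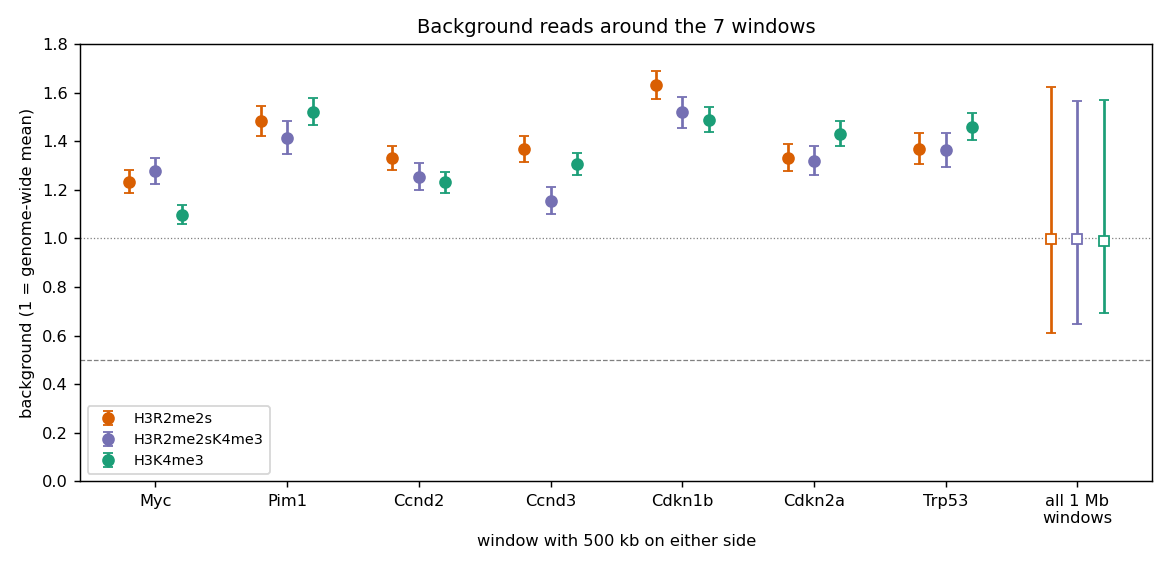
Background reads in each window with 500 kb on either side, as multiples of the genome-wide background of the same library (dotted line at 1, dashed line at 0.5), with exact 95% Poisson intervals. Open squares give the median of all autosomal 1 Mb windows, with bars to their 5th and 95th percentiles. The 21 points lie between 1.10 and 1.63.

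That measure leaves out bins with no read in any library and cannot show their loss, so these were counted separately. None of the 275 bins of the 7 windows was at 0 in all 3 libraries. In the wider stretches, 160 of 1040 bins around Cdkn2a were at 0 in all libraries, against 0 to 38 around the other genes. The longest runs of them were a pair. The longer, chr4:88963001-89012000, spans 49 kb, begins 13 kb after the end of the Cdkn2a window and lies in 50129 bases with no read between the nearest reads on its sides. The other, chr4:88418001-88450000, spans 32 kb and ends 460 kb before the window. Runs of this length also occurred elsewhere, and the genome held 830 runs of at least 20 kb and 449 of at least 40 kb, among them 25 of 49 kb and 18 of 50 kb, beside 11 of 48 kb and 3 of 51 kb. A stretch missing from the cells, a gap in the assembly and sequence to which reads were not assigned cannot be told apart here. Shorter lows were also seen, as in the 10 kb step from 70 to 60 kb before the centre of the window, which stood at 0.127, 0.161 and 0.101 times background and had 7 bins at 0 in all libraries. In the step that starts 90 kb after the centre of the window the levels were 1.95, 2.58 and 2.28 times background.

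**Figure D5:**
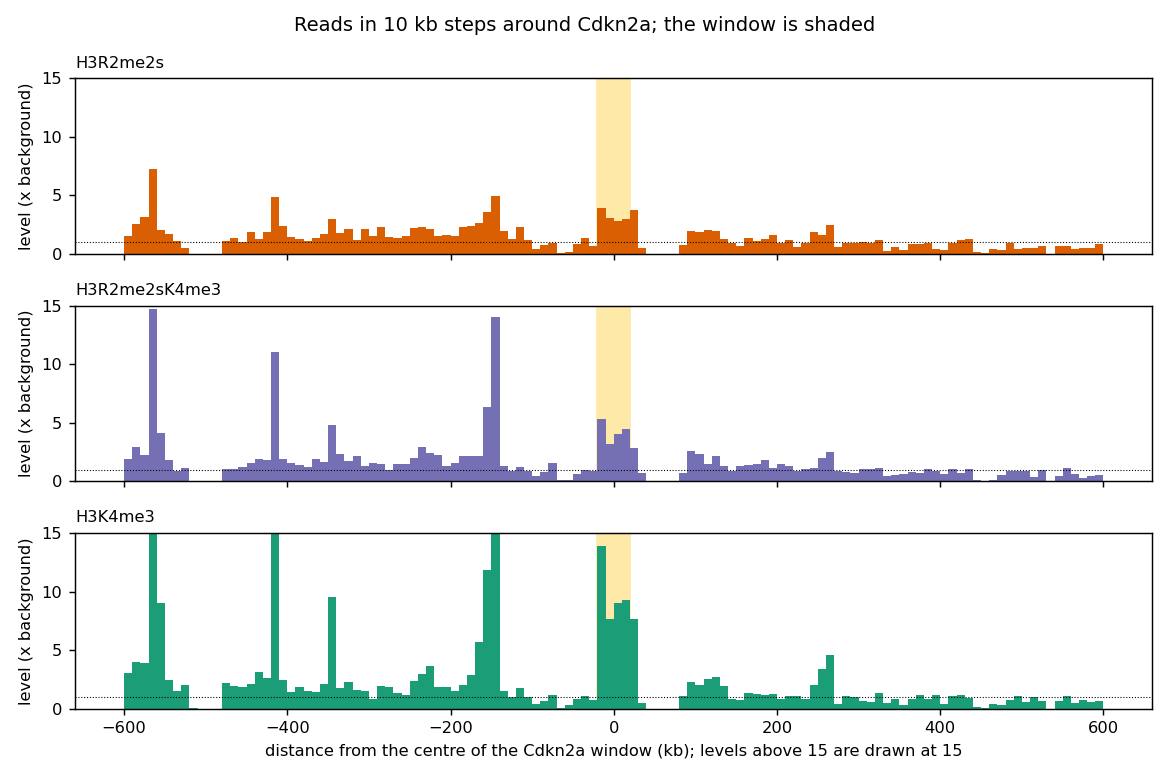
Level of each library in 10 kb steps around the centre of the Cdkn2a window (multiples of background, drawn to 15 at most, window shaded, dotted line at 1). Reads fall to 0 in all 3 libraries in the steps between 40 and 80 kb after the centre, and the steps within the window stand at 2.85 to 3.95 for H3R2me2s, 3.22 to 5.32 for the joint mark and 7.69 to 13.9 for H3K4me3.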

How the data were processed

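Each line of the deposited files is a mapped read of 39 bases, from which read counts were made here with no scaling by the authors. Per the submitters' processing notes the build was mm9. The aligner and the handling of duplicates are not given in the sources used here. Per the labels' protocols, libraries had 15 PCR cycles and fragments of 100 to 500 bp.

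Positions were moved 75 bp downstream on the read's own strand and tallied per 1 kb bin with Python 3.11.15, NumPy 2.4.6, pandas 2.3.3 and SciPy 1.17.1. Calls needed both 4 times the mean over bins with a read and a count whose Poisson upper tail fell under 1e-06. Called bins were merged across gaps of up to 1 kb. Calling was tested on simulated Poisson counts with a nearly even background and planted bins of known level. Such counts cannot show false calls from uneven background or repeated reads. The named items are the 7 genes, the highest bin of each window and library, and each merged region that touches a window. The members and lists were chosen with earlier results of these data known. RefSeq symbols and gene order came from a GRCm38.p6 table, whose coordinates set order and overlap of genes and were not carried over to mm9. Other pathway genes and lineage markers were not analysed here. Alternatives changed the read shift, repeats, depth, calling limit, bin size, scaling, window and background rule.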

Additional observations from a re-analysis of the deposited data

How the results depend on the processing

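Over 88 results and 13 settings, 464 of 547 recomputed values moved by less than their interval or 1.5 times, and 83 moved more. A change of direction could be seen only for distances between highest bins that were not 0, and 0 of these changed direction. Counts, ratios and background levels had no direction to change. The count of H3R2me2s bins, 57, was 34 at 8 times the mean and 36 kb with 500 bp bins, and Cdkn2a then had 0 and 0.5 kb. Scaling to background instead of total reads set the median ratio over the 7 genes to 0.270 for H3R2me2s over H3K4me3, 0.799 for the joint mark over H3K4me3 and 0.338 for H3R2me2s over the joint mark. Over whole windows the first was 0.513. Cdkn2a had the lowest joint mark over H3K4me3 of the 7 in all 7 settings run, at 0.365 to 0.521. It had the lowest H3R2me2s over H3K4me3 in 6 of them and was number 4 from the lowest over whole windows, which also count the reads of uncalled bins. The lowest background of the 7 stretches was 1.17 for H3R2me2s relative to the chromosome, 1.21 for the joint mark within 200 kb, and for H3K4me3 1.14 with bins over 10 kb from an enriched bin and 1.02 (0.962 to 1.08) within 200 kb, at Myc. The checks of highest bins and the count without Ccnd3 were added after seeing the data. No paired analysis was possible because there was 1 library per antibody, which also left none to leave out. Depth limits the weak bins of Cdkn2a, which hold 2 to 24 reads of H3R2me2s.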

Other observations

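The only bin called for H3R2me2s alone lay in the Myc window at chr15:61812001-61813000, with 18 reads of H3R2me2s, 2 of the joint mark and 2 of H3K4me3. Counting each position and strand once left 14 reads of H3R2me2s, under the limit of 15, so the call did not hold there.

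Repeated reads of H3K4me3 were more common at the strongly marked genes than in the whole library. They made up 11.4% of reads at Myc, 12.5% at Pim1, 14.5% at Cdkn1b and 14.9% at Trp53, beside 6.20% in the library and 3.87% at Cdkn2a. Counted once, they set H3R2me2s over H3K4me3 at 0.404 for Cdkn1b and 0.470 for Trp53, and the joint mark over H3K4me3 at 0.941 for Cdkn1b. The other ratios to H3K4me3 moved by less than their counting intervals.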
